A study of Rattus norvegicus with 6 samples.

Results

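The 10 genes described here encode the fibrillar collagen chains Col1a1, Col1a2, Col3a1, Col5a1, Col5a2, Col5a3 and Col11a1, the fibril-associated chains Col12a1 and Col14a1, and Pcolce, the procollagen C-endopeptidase enhancer. They were chosen by symbol: every probe set, a group of array probes read as 1 value, whose single gene symbol in the platform annotation is one of these was taken. That gave 17 probe sets of the 15923 on the RAE230A rat array, and the 10 genes stand among 10412 symbols on it. RNA came from mesenchymal stromal cell cultures of rats carrying a GFP transgene, with no treatment. Each of the 3 rats (S4, S5 and S6) gave 1 culture from peripheral blood and 1 from bone marrow, so 3 blood and 3 marrow cultures were paired by animal. Both kinds were plastic-adherent cells grown from gradient-isolated mononuclear cells in the same serum-containing medium and lysed at passage 2. For the rats' age, sex, strain and transgene promoter, the sources used here give nothing. The deposited signals were read as log2, a base inferred from their range of 0 to 13.31, and folds depend on that reading. Because the RNA is from whole cultures, fewer cells of a type and less RNA per cell cannot be told apart.

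Fibrillar collagens are secreted as procollagens of 3 chains wound in a triple helix. Type I collagen, of Col1a1 and Col1a2 chains, and type III, of Col3a1 chains, make the bulk of fibrils in most connective tissue. Types V and XI start fibrils and limit their width, types XII and XIV sit on the fibril surface through interrupted helices, and Pcolce speeds removal of the C-propeptide that lets the molecules assemble. Stromal cells of marrow and other tissues are large producers of these proteins.

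Promoter sequence from RefSeq (build GRCr8) was held for 6 of the 10 genes, namely Col1a2, Col5a1, Col5a2, Col5a3, Col11a1 and Pcolce. It is shown for the 3 that carry CCAAT, the letters bound by the factor NF-Y, within 250 bases before the annotated start, searched on both strands. The capitals mark CCAAT, which reads ATTGG where it lies on the strand opposite to the gene. Each run is on the gene's strand, 5′ to 3′, with up to 60 bases either side.
Col1a2: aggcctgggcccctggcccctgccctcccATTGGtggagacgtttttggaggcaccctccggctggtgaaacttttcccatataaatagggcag
Col11a1: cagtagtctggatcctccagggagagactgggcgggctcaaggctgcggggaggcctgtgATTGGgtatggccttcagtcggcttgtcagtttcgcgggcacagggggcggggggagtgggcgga
Col5a3: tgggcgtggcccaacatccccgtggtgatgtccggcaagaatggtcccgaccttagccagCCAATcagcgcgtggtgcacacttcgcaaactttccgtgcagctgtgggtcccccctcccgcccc
These lie at chr4:33518307-33518400 on the plus strand, chr2:204508999-204509123 on the plus strand and chr8:27626066-27626190 on the minus strand. The first base of the motif is at -221 in Col1a2, -77 in Col11a1 (a further one is at -230) and -182 in Col5a3. Of 33469 rat promoter windows of 250 bases, 34.0% held CCAAT on either strand, so its presence in 3 of 6 is a description. The letters TATAAA were found in Col1a2 at -170 and in none of the other 5, and 12.9% of windows held them. GGGCGG, the GC box, was found in Col5a1, Col5a3, Col11a1 and Pcolce, and 30.5% of windows held it.

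The comparison asked how collagen expression of stromal cells from blood differs from that of marrow cells of the same animal. Col14a1 was lower in the blood culture of every rat, and 1 of its 2 probe sets passed the test. The fibrillar chain genes lay close to the top of the signal scale in both sources or differed by less than 1 log2 unit on average, and none of their probe sets passed. Each difference is the blood signal less the marrow signal (log2) with its SE, fitted by limma with the rat as a term, and a call is an adjusted p under 0.05 over all 8135 probe sets tested. Of the 17 probe sets, 15 from 9 genes lay above the table's median of 8.18 on at least 3 arrays and were tested. Col5a3 and the dimmer Col11a1 probe set lay below, and their values come from a fit without that filter. In all, 1 of the 15 was called, lower in blood, where 2.15% of all tested probe sets were called and 1.17% called lower.

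**Figure D1:**
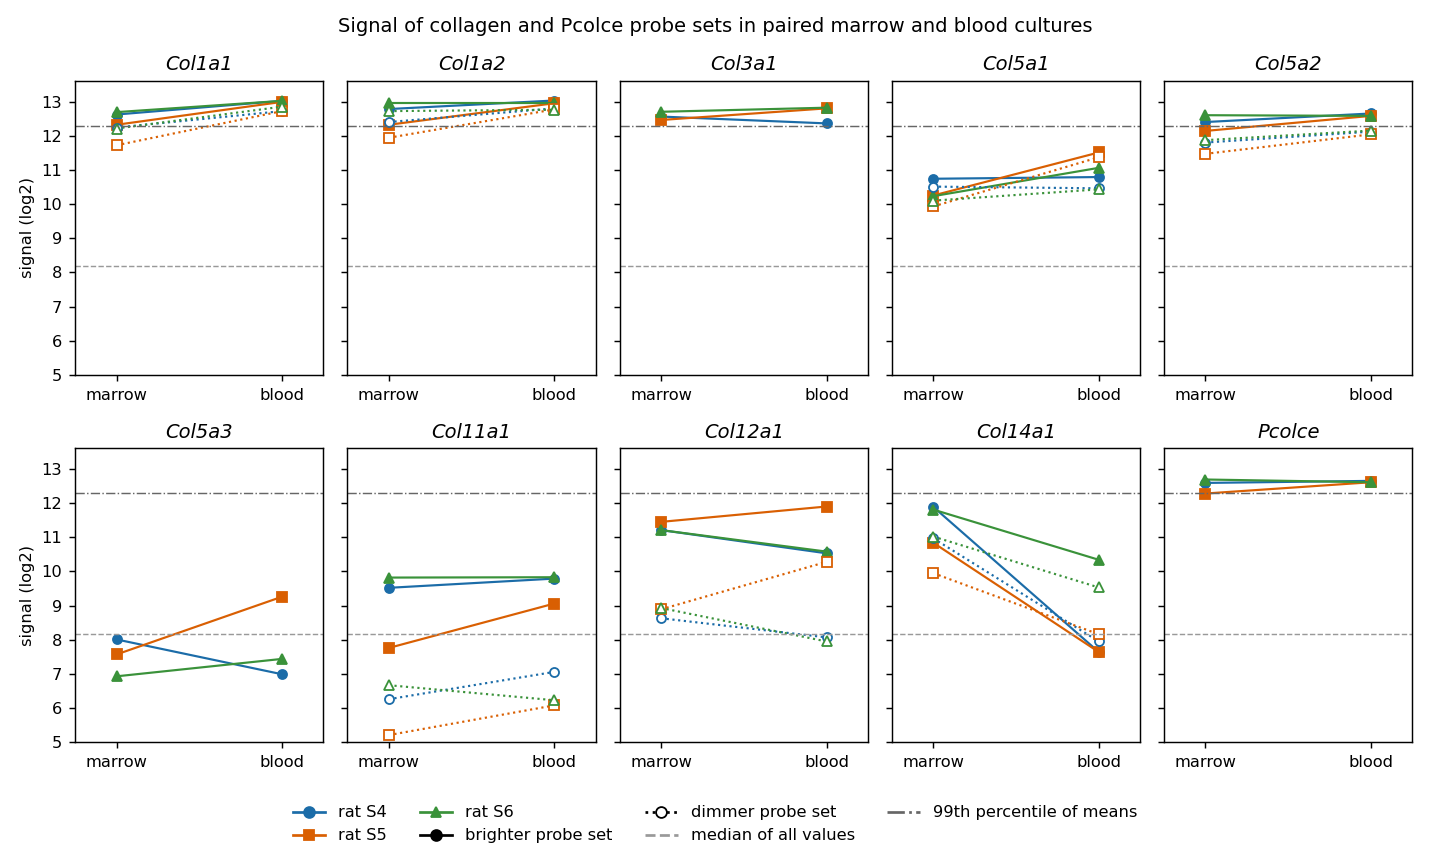
Signal (log2, vertical axis) of every probe set of the 10 genes in marrow and blood cultures, with a line for each rat; filled symbols and solid lines are the brighter probe set of a gene, open symbols and dotted lines the dimmer. The lines of Col14a1 fall in all 3 rats, those of Col1a1 lie near the top of the scale, and Col12a1 and Col5a3 are highest in the blood culture of rat S5.

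Among the fibril-forming chains, Col1a1, the α1 chain of type I collagen, was somewhat higher in all 3 blood cultures. Its brighter probe set (1388116_at) read 13.02, 12.99 and 13.02 in the blood cultures of rats S4, S5 and S6 and 12.62, 12.32 and 12.69 in their marrow cultures. The other (1370864_at, designed on the same sequence record) read 12.72, 12.72 and 12.85 against 12.24, 11.72 and 12.21. On both, all blood cultures lay above all marrow cultures, and the lowest was the marrow culture of rat S5. The differences were 0.47 ± 0.13 (95% interval 0.14 to 0.79, adjusted p = 0.188) and 0.71 ± 0.15 (0.34 to 1.07, adjusted p = 0.0990), so neither was called. With a prior variance that follows the signal level, the second had an adjusted p of 0.0413.

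Col1a2, the α2 chain that joins Col1a1 in type I collagen, was even across blood cultures and less so across marrow cultures. Its brighter probe set gave 13.03, 12.95 and 12.96 in blood and 12.78, 12.32 and 12.96 in marrow, so rat S6 showed no difference. Its other one stood at 12.80, 12.77 and 12.76 against 12.40, 11.94 and 12.72. The groups overlapped on the first and not on the second, where they were 0.04 apart in rat S6. Differences were 0.29 ± 0.16 (-0.10 to 0.69, adjusted p = 0.515) and 0.42 ± 0.18 (-0.02 to 0.87, adjusted p = 0.379).

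Col3a1, the chain of type III collagen, read 12.36, 12.80 and 12.82 in blood, and in marrow 12.56, 12.46 and 12.70. It was the fibril-forming gene with the widest overlap, since the lowest of all 6 values was a blood culture, that of rat S4. The difference of 0.09 ± 0.15 had a 95% interval of -0.28 to 0.45 (adjusted p = 0.893) and turned to -0.04 without rat S5.

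Of the regulatory fibrillar chains, Col5a1 and Col5a2 make up most type V collagen. Col5a1 read 10.79, 11.51 and 11.06 in blood and 10.74, 10.25 and 10.23 in marrow on its brighter probe set, and 10.46, 11.37 and 10.43 against 10.51, 9.93 and 10.10 on the dimmer. The blood culture of rat S5 was the highest of the 6 on both, and rat S4 hardly differed between its cultures, by 0.05 and -0.05. The mean differences were 0.71 ± 0.24 (0.11 to 1.31, adjusted p = 0.269) and 0.57 ± 0.29 (-0.15 to 1.30, adjusted p = 0.479). Without rat S5 they were 0.44 and 0.14.

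Col5a2 was more even than Col5a1. It read 12.65, 12.58 and 12.58 in blood and 12.40, 12.14 and 12.60 in marrow on the brighter probe set, and 12.12, 12.04 and 12.15 against 11.80, 11.47 and 11.87 on the dimmer. Groups overlapped on the first only. Differences were 0.22 ± 0.14 (-0.12 to 0.57, adjusted p = 0.586) and 0.39 ± 0.13 (0.08 to 0.70, adjusted p = 0.249).

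Col5a3, a rarer type V chain, was dim, with 6.99, 9.26 and 7.44 in blood, and in marrow 8.01, 7.57 and 6.93. It exceeded the table's median on 1 array, the blood culture of rat S5, and its difference of 0.39 ± 0.52 had an interval of -0.94 to 1.73 (adjusted p = 0.885 without the filter). Col11a1, a chain of type XI collagen that is best known from cartilage, read 9.79, 9.06 and 9.83 in blood and 9.52, 7.76 and 9.82 in marrow. Only the marrow culture of rat S5 lay below the table's median, and rats S4 and S6 differed by 0.27 and 0.01 between sources. The mean of 0.53 ± 0.26 (-0.13 to 1.18, adjusted p = 0.469) was 0.14 without rat S5. The dimmer probe set of Col11a1 ranged from 6.08 to 7.06 in blood and 5.21 to 6.67 in marrow, all below the median, with 0.41 ± 0.30 (adjusted p = 0.731 without the filter).

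The fibril-associated chains are Col14a1 and Col12a1. Col14a1, the chain of type XIV collagen, gave 7.64, 7.64 and 10.34 in blood, and in marrow 11.89, 10.84 and 11.81, on its brighter probe set (1376105_at). On the other (1376170_at) it stood at 7.95, 8.16 and 9.53 against 10.97, 9.95 and 11.02. No blood culture reached any marrow culture on either, and the blood culture of rat S6 lay 2.70 and 1.48 above the mean of the other two. In rats S4, S5 and S6 the within-rat differences were -4.25, -3.20 and -1.47 on the first and -3.02, -1.79 and -1.49 on the second. The second fell by 2.10 ± 0.30, or 4.29-fold (95% interval -2.85 to -1.35, adjusted p = 0.0380), and was called. The first differed by -2.97 ± 0.50 (-4.21 to -1.73) with an adjusted p of 0.0542, just above the threshold. The folds are approximate, because the blood cultures of rats S4 and S5 lay below the table's median, where the background is unknown.

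The Col14a1 call depended on the setting and on which rats were fitted. Without rat S4 no probe set of any gene passed, and the smallest adjusted p was 0.152. A fit without a rat has 1 residual degree of freedom in place of 2. Lower precision and the influence of the rat left out cannot be told apart there. For the called probe set the adjusted p ran from 0.0140 to 0.188 over 10 alternatives and passed in 2 of them. It was 0.188 without rat S4, with a difference of -1.64, and 0.103 without rat S6. It was 0.114 in the fit that ignores the pairing by rat. For the brighter probe set it ran from 0.0291 to 0.477 over 11 alternatives and passed in 4, among them the mean of both probe sets at -2.54 ± 0.38 (adjusted p = 0.0291). The sign was the same in every one of these fits.

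Col12a1, the chain of type XII collagen, differed in direction between rats. Its brighter probe set read 10.53, 11.90 and 10.58 in blood and 11.21, 11.45 and 11.21 in marrow, and its dimmer one, whose probes match more than 1 transcript form, read 8.07, 10.28 and 7.95 against 8.63, 8.89 and 8.93. In both, the blood culture of rat S5 was the highest of all 6 arrays and the blood cultures of rats S4 and S6 the lowest. The mean differences were -0.29 ± 0.25 (-0.91 to 0.33, adjusted p = 0.734) and -0.05 ± 0.45 (-1.18 to 1.08, adjusted p = 0.987). Without rat S5 they were -0.66 and -0.77, with adjusted p of 0.111 and 0.0880. Set against Col12a1's brighter probe set, the change of the brighter Col14a1 probe set differed by -3.57, -3.65 and -0.84 log2 units in rats S4, S5 and S6, and the size of that gap was not tested.

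Pcolce, the enhancer of propeptide removal, was bright and even with 12.65, 12.61 and 12.61 in blood, and in marrow 12.59, 12.28 and 12.69. Its difference of 0.10 ± 0.13 had an interval of -0.23 to 0.44 (adjusted p = 0.840), and the one value that stood lower was again the marrow culture of rat S5.

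**Figure D2:**
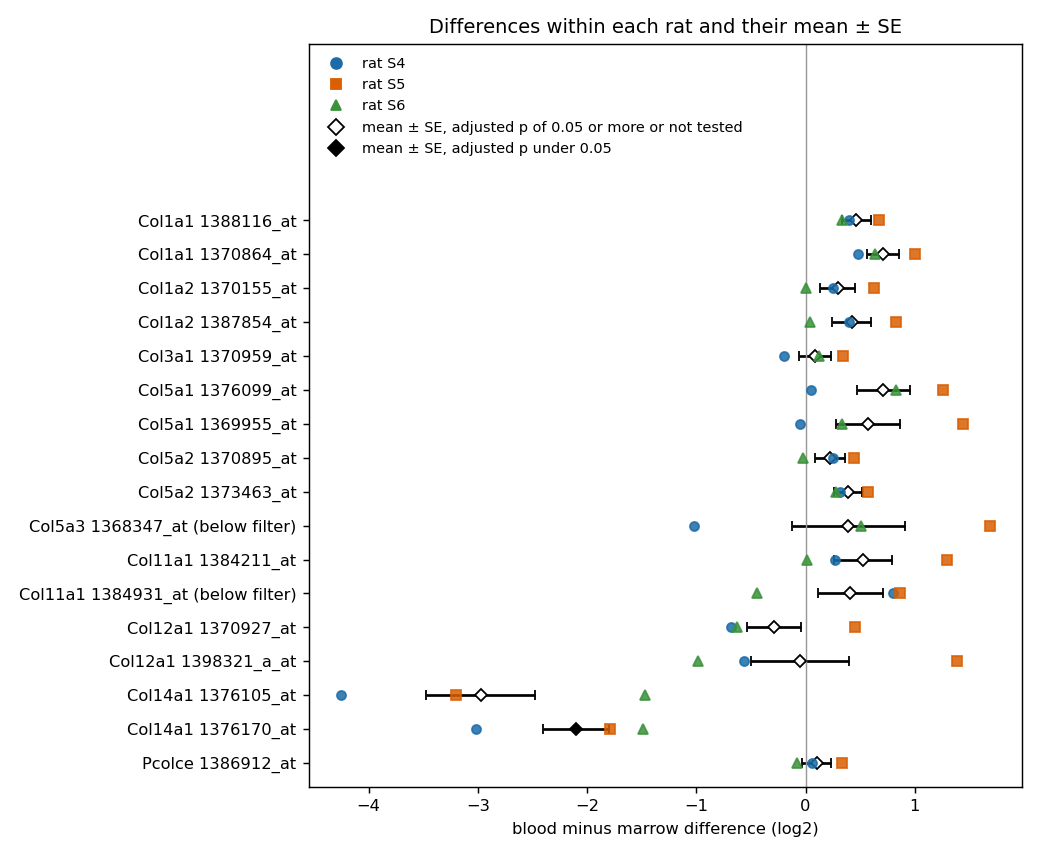
Blood minus marrow difference (log2, horizontal axis) of each probe set in rats S4, S5 and S6 (coloured symbols) with the mean and SE (diamond), filled where the adjusted p was under 0.05. Both Col14a1 probe sets lie below 0 in all rats and average -2.97 and -2.10, and only 1376170_at is filled. Rat S5 lies furthest to the right for every other probe set.

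Read by group, the 5 probe sets of fibril-forming chains and the 5 tested ones of regulatory chains all had mean differences above 0, with medians of 0.42 and 0.53. The median over all tested probe sets was -0.01. The 4 of fibril-associated chains had means below 0 and a median of -1.19. Of the 15 tested, 5 had all blood cultures above all marrow cultures, where 7.09% of tested probe sets did, and 2 had all below, where 11.3% did. Those 5 were both of Col1a1 and 1 each of Col1a2, Col5a1 and Col5a2. The probe sets of a gene share its RNA and all share the same 6 cultures, so these counts are a description and not independent observations.

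The marrow culture of rat S5 was the lowest of the 3 marrow cultures on 13 of the 17 probe sets, where 31.4% of all tested probe sets had it lowest. It lay below the mean of the other marrow cultures by 0.34 and 0.51 for Col1a1, by 0.55 and 0.62 for Col1a2 and by 1.91 for the brighter probe set of Col11a1. The exceptions were 1 of Col5a1, Col5a3 and both of Col12a1. The blood culture of rat S5 was the highest of its 3 on 5 of the 17, a share near the 24.5% of all tested probe sets. These were both of Col5a1, both of Col12a1 and that of Col5a3, where it exceeded the mean of the other blood cultures by 0.58, 0.93, 1.34, 2.27 and 2.04. Leaving out rat S5 brought the differences of Col1a1 to 0.56 on the dimmer probe set and of Col1a2 to 0.22 on its dimmer one. What sets the marrow culture of rat S5 apart was not tested.

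**Figure D3:**
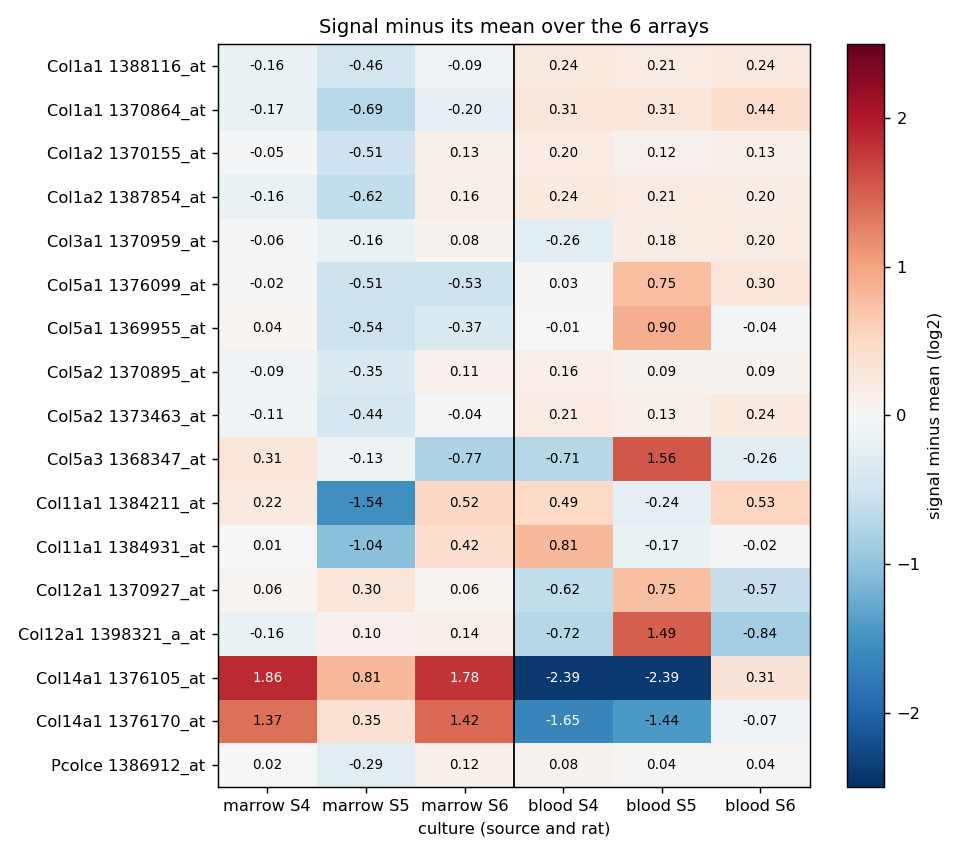
Signal of each probe set (rows) minus its own mean over the 6 arrays (log2, colour and printed value) in the marrow and blood cultures of rats S4, S5 and S6 (columns). The marrow culture of rat S5 is below the mean for type I, V and XI chains, at -1.54 for the brighter Col11a1 probe set, and its blood culture is the highest for Col5a1, Col5a3 and Col12a1.

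Of the 17 probe sets, 7 from 5 genes were near the top of the scale, meaning a mean over 6 arrays at or above 12.29, the 99th percentile of all probe sets. They were both of Col1a1, both of Col1a2, that of Col3a1, the brighter one of Col5a2 and that of Pcolce. The brightest value on each array was 13.12 to 13.31, and the brighter Col1a1 probe set read 12.99 to 13.02 in blood. Differences were small in this range in general: the median size among the 154 tested probe sets near the top was 0.045 log2 units, against 0.13 over all, and limma called none of the 154, of which 9 (5.84%) had an unadjusted p below 0.05, against 14.1% of all tested. Within those 154 the dimmer Col1a1 probe set had the largest positive difference, and the brighter one was the 4th and the Col1a2 probe sets the 6th and 9th from the top. The Col5a2 probe set was 13th, Pcolce 21st and Col3a1 24th. In Col1a1, Col1a2 and Col5a2 the probe set with the lower signal gave the larger difference. In Col5a1, Col11a1, Col12a1 and Col14a1 the brighter probe set gave the difference of larger size. Whether the top of the scale shrank any of these differences was not tested.

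**Figure D4:**
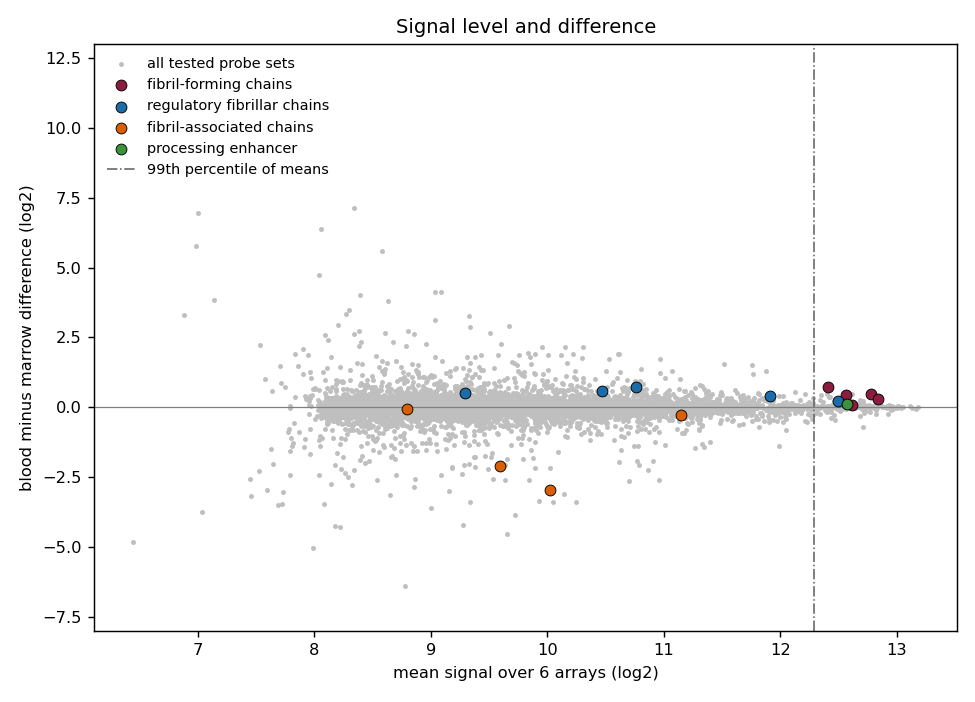
Mean signal over the 6 arrays (log2, horizontal axis) and blood minus marrow difference (log2, vertical axis) of all tested probe sets (grey) and of the 15 tested collagen and Pcolce probe sets, coloured by role. The spread of differences narrows to the right, and the 7 probe sets past the dash-dotted line at 12.29 lie between 0.09 and 0.71, while Col14a1 lies at -2.97 and -2.10.

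Among kept probe sets of other genes, likeness to a collagen was taken as the root mean square distance between the 6 log2 values after each was centred on its own mean. The brighter Col1a1 probe set, whose own spread by that measure was 0.26, was closest to Col5a2 on its dimmer probe set, at 0.05. Next came Fkbp9, a prolyl isomerase of the endoplasmic reticulum, and Nid1, the basement membrane protein nidogen, both at 0.07. Col3a1, with a spread of 0.17, was closest to Cacng2, Sall2 and Scd2 at 0.08 each. These are probe sets of dimmer signal, 8.32 to 9.07 over all arrays, and small spread. Another probe set of Scd2 was brighter, at 11.12 to 11.73. For Col14a1, with a spread of 1.77, the nearest was Gja5, the gap junction protein connexin 40, at 0.56. It read 7.76, 6.97 and 8.86 in blood and 10.93, 9.35 and 10.63 in marrow. Both kept probe sets of Col18a1, a basement membrane collagen, followed at 0.70 and 0.75.

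Of 109 other genes of collagen biology that were listed for this comparison, 76 were on the array by a single-symbol probe set and 63 were tested, each on its brightest kept probe set. Of these 2 were higher, 2 lower and 59 did not pass, with a median difference of 0.01 against -0.01 over all 6110 genes tested. Of those 6110 genes, 53 were called higher and 71 lower, which is 2.03%, against 6.35% of the 63. Over all tested probe sets 0.983% were called higher. An unadjusted p below 0.05 was found for 21 of the 63 (33.3%) and for 13.7% of those 6110 genes. The list was chosen with earlier results of these data known, so these shares are a description only. None of the 17 chain modification and folding genes was called by limma (2 had an unadjusted p below 0.05), and their median difference was 0.01. Serpinh1, the collagen chaperone HSP47, differed by 0.04 ± 0.12 and P4hb, a subunit of prolyl 4-hydroxylase, by 0.01 ± 0.11, both named after their values were seen. P4ha1, the catalytic subunit of that enzyme, differed by 0.45 ± 0.13 (adjusted p = 0.202), the galactosyltransferase gene Colgalt1 by -0.34 ± 0.13 and the lysyl hydroxylase genes Plod1 and Plod2 by -0.42 ± 0.17 and 0.23 ± 0.11.

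Among 7 export and processing genes 1 was called. Pcsk6, a furin-like proprotein convertase, gave 9.84, 8.55 and 9.55 in blood, and in marrow 7.09, 5.87 and 7.80, and rose by 2.39 ± 0.22 (adjusted p = 0.00950). All its marrow values were below the table's median. Without rat S4 it was 2.21 with an adjusted p of 0.302, in the fit without pairing its adjusted p was 0.114, and it passed in 7 of 10 alternatives. Bmp1, the procollagen C-proteinase that Pcolce enhances, differed by -0.43 ± 0.17 (adjusted p = 0.349), Sec24d by 0.16 ± 0.12 and Furin by 0.23 ± 0.19. None of 3 crosslinking genes was called by limma (1 had an unadjusted p below 0.05). That was Loxl1, a lysyl oxidase, at -0.66 ± 0.13 (adjusted p = 0.0818), while Lox differed by -0.04 ± 0.13. Tgm2, a transglutaminase, differed by 0.23 ± 0.18 in rats S4 and S6, since both arrays of rat S5 are empty for it and the fit dropped them. Of 6 further fibrillar and fibril-associated chains on the array only Col27a1 was tested, at 0.18 ± 0.18 (adjusted p = 0.793).

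The breakdown genes held 3 of the 4 calls, 1 higher and 2 lower of 8 tested. The collagenase gene Mmp13 read 6.71, 8.96 and 6.50 in blood and 12.15, 12.77 and 10.85 in marrow, and fell by 4.53 ± 0.31. Fap, a serine protease of activated fibroblasts, read 6.23, 8.49 and 6.50 against 10.45, 10.22 and 10.01, and fell by 3.15 ± 0.46 (adjusted p = 0.0380). Timp3, a metalloproteinase inhibitor bound to matrix, read 12.05, 9.53 and 11.90 against 7.54, 7.21 and 6.32, and rose by 4.14 ± 0.59. All the Timp3 marrow values were below the table's median, so it passed the filter through its blood values alone. For all 3 the blood culture of rat S5 lay nearest to the marrow cultures. Without rat S4 none of the 3 passed, nor did any other probe set tested. The 3 differences there were -4.08, -2.62 and 3.95, with adjusted p of 0.152, 0.461 and 0.485. Without rat S6 Fap and Timp3 did not pass either (adjusted p = 0.230 and 0.123), and in the fit that ignores the pairing Fap did not (adjusted p = 0.0595). In the fit without the filter neither Fap nor Timp3 passed (adjusted p = 0.116 and 0.115). Over 10 alternatives Mmp13 passed in 9, Fap in 2 and Timp3 in 4. Mmp14, a membrane-bound collagenase, was lower in all rats by a mean of -0.38 ± 0.12 and did not pass (adjusted p = 0.238).

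None of 12 fibril-binding proteins was called by limma. Of these 8 had an unadjusted p below 0.05, and the median size of difference was 1.28. Fmod, fibromodulin, differed by 1.53 ± 0.27, Ecm1 by 1.17 ± 0.23, Postn, periostin, by -2.60 ± 0.58 and Ogn, osteoglycin, by -1.40 ± 0.40, with adjusted p of 0.0647, 0.0892, 0.116 and 0.196. None of 4 collagen receptor genes passed in limma, and 2 had an unadjusted p below 0.05: Itga1, the α1 integrin chain, at 0.78 ± 0.24 and Ddr2, a receptor tyrosine kinase, at -0.33 ± 0.12, while Ddr1 and Itgb1 differed by 0.53 ± 0.27 and 0.07 ± 0.14. None of 11 regulators passed in limma on its brightest kept probe set. An unadjusted p below 0.05 was found for 2, the signal transducer gene Smad3 at -0.58 ± 0.16 and the ligand gene Tgfb2 at 0.81 ± 0.24. Smad2 and Tgfb1 differed by 0.22 ± 0.15 and 0.33 ± 0.25. Of 14 further kept probe sets of the 63 genes, limma called 2, both higher in blood and named after their values were seen. One was of Timp3, at 4.72 ± 0.57 (adjusted p = 0.0205), with all its marrow values below the table's median. The other was of Smad7, an inhibitor of TGF-beta signalling, at 0.99 ± 0.14 (adjusted p = 0.0341, higher in 3 of 3 rats). In the fit without the filter neither passed (adjusted p = 0.0765 and 0.111). The brightest probe set of Smad7 differed by 0.02 ± 0.15, so its probe sets disagree. A further Smad7 probe set, below the filter, differed by 0.72 ± 0.28 and was higher in 3 of 3 rats (adjusted p = 0.443 without the filter).

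**Figure D5:**
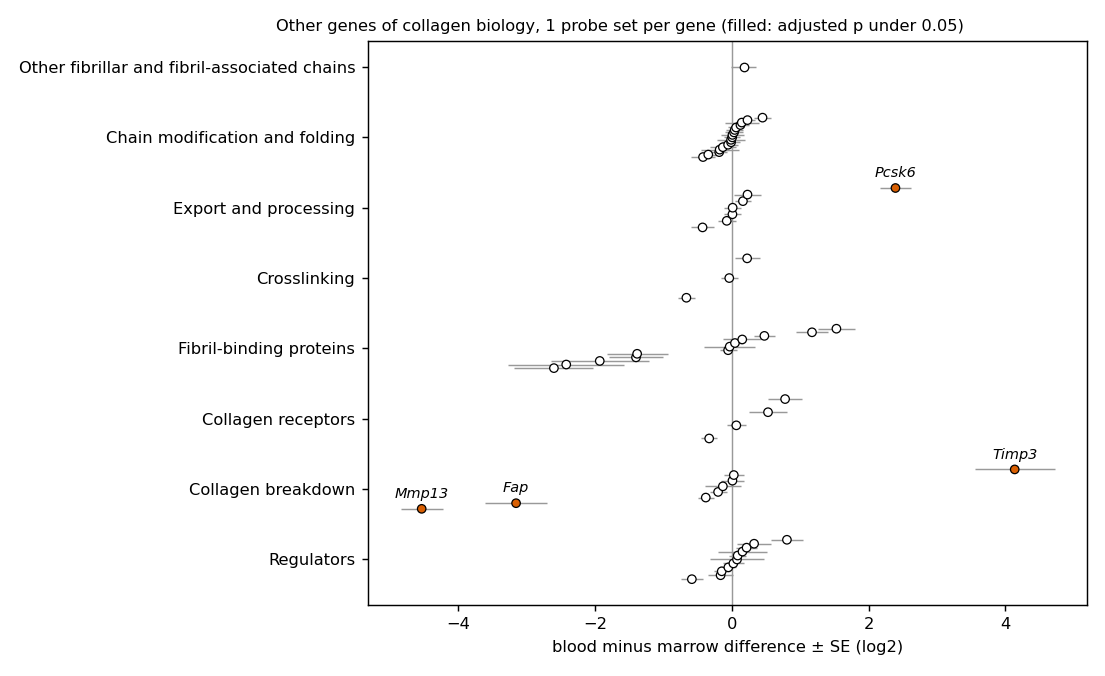
Blood minus marrow difference with SE (log2, horizontal axis) of 63 other genes of collagen biology in 8 groups by role, 1 point per gene, filled and named where the adjusted p was under 0.05. Pcsk6 and Timp3 lie to the right at 2.39 and 4.14, Mmp13 and Fap to the left at -4.53 and -3.15, and the modification and folding genes lie between -0.42 and 0.45.

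Array medians lay between 8.12 and 8.22, and precision is limited by there being 6 arrays. All 8 stromal marker genes listed were tested, with 1 called higher, and their summed linear signal was 18525 to 20318 in blood and 20652 to 24089 in marrow cultures. These ranges do not overlap. Bright genes weigh most in such sums, and how often sums of other genes fail to overlap was not counted. Vim read 12.72 to 12.95 and S100a4 12.12 to 12.84. They differed by 0.01 ± 0.12 and -0.13 ± 0.15, both named after their values were seen. Leukocyte and macrophage markers, 7 of 11 tested and none called, summed to 7990 to 9655 and 4912 to 9169. Smooth muscle markers, 3 of 5 tested and none called, summed to 3577 to 5340 and 2597 to 3346, and did not overlap either. Epithelial and mesothelial markers, 1 of 6 tested and called lower, summed to 837 to 987 and 1172 to 1678, again without overlap. Platelet and erythroid, osteoblast, chondrocyte and endothelial sums overlapped between sources. No marker was listed at 0, and the part of other cell types in the collagen differences was not tested. The arrays of rats S4 and S5 were washed on fluidics station 1 and those of rat S6 on station 2. The mean Col14a1 differences were -3.73 and -2.40 on station 1 and -1.47 and -1.49 on station 2, and those of Col1a1 0.54 and 0.74 against 0.33 and 0.64. Station and rat cannot be told apart. In each rat the blood array was scanned before the marrow array, so scan order and source cannot be told apart either.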

How the data were processed

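Affymetrix RAE230A arrays were hybridised with RNA of 6 cultures, 1 array each. Per the submitters' processing notes GCOS made the values. No source used here gives the summarisation, background correction or normalization. The deposited table holds log2 signals per probe set (base read from the values) and was used as it is, with 57 control probe sets left out and 86 empty cells left empty. Symbols came from the platform annotation, and 0 symbols of the 10 genes needed updating. Probe sets above the median of all values on at least 3 of 6 arrays entered limma 3.58.1 under R 4.3.3 (two-sided, lmFit then eBayes), adding rat as a fixed term since the series' design text pairs the cultures by animal, and Benjamini-Hochberg adjustment. Deviations from the group means correlated at -0.29, 0.30 and 0.33 in same-rat arrays. Between blood and marrow arrays of different rats they correlated at -0.47 to 0.42, so same-rat pairs did not stand out. The fit was tested on simulated data. The p-values rest on the spread of the within-rat differences over these 3 rats, with the variance of each probe set drawn by eBayes towards a common one. The 10 genes and the lists were chosen with earlier results of these data known. Named are all 10 genes, up to 4 genes of smallest p in each role group, and the 3 probe sets most like Col1a1, Col3a1 and Col14a1. Exceptions are marked. Python 3.11.15, pandas 2.3.3 and matplotlib 3.10.9 made tables and figures. Alternatives were the pairing, scaling, filter, variance prior, probe set averaging and each rat left out.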

Additional observations from a re-analysis of the deposited data

How the results depend on the processing

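The single call among the collagen probe sets did not last under most alternatives. In the unpaired fit (no replicate block), with the rat as a random replicate block, after scaling to a common trimmed mean, after quantile normalization, without a filter, under the stricter filter (which removes Col14a1) and with robust variance it was 0, against 1 in the paired fit. With an intensity trend it was 3, namely both Col14a1 probe sets and 1 of Col1a1. Leaving out a rat gave 0 to 2. Calls among the 63 other collagen genes were 2 in place of 4 in those same 7 alternatives and 0 to 11 without a rat. Under the stricter filter the 2 were other genes, both higher in blood, because that filter removes Pcsk6, Mmp13, Fap and Timp3. Over all probe sets the 175 calls became 130 without the replicate block, 109 after scaling, 107 after quantile normalization, 82 without a filter and 0 to 406 without a rat, the 0 being without rat S4, where 770 probe sets had an unadjusted p under 0.05. Without a rat, Col3a1 ran from -0.04 to 0.23, the dimmer Col12a1 probe set from -0.77 to 0.41 and Pcolce from -0.01 to 0.20. Those 4 changes of sign were the only ones among 167 refits of single probe sets, and none involved a called value. Of the rest 150 kept their side of the threshold, 5 gained and 8 lost it. An instrument block was not run, because each station holds whole rats and each module 1 array. The causes of these shifts were not tested. Whether the top of the signal scale or the unknown background below 8.18 alters differences was not tested.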

Other observations

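Of the 12 fibril-binding genes tested, the blood culture of rat S5 was the highest of the 3 blood cultures in 5 and the lowest in 7. Over all tested probe sets it was the highest in 24.5%. The share with it lowest was not counted, so these counts are a description only. The genes below were picked after their values were seen and stand for no group. Dcn, decorin, which binds type I fibrils, read 10.55, 12.89 and 10.44 in the blood cultures of rats S4, S5 and S6 and 12.57, 12.83 and 12.63 in marrow. Lum, lumican, read 8.11, 11.92 and 9.79 against 12.01, 11.72 and 11.88, and Tgfbi, a collagen-binding adhesion protein, 6.16, 9.83 and 6.48 against 11.15, 9.97 and 8.61. Their mean differences of -1.38 ± 0.45, -1.93 ± 0.72 and -2.42 ± 0.85 did not pass in limma (adjusted p = 0.250, 0.315 and 0.289). Ogn, osteoglycin, had the blood culture of rat S5 lowest of all 6, below 10.35 and 11.68 in the other blood cultures and 10.72 to 12.01 in marrow. Aspn, asporin, lay below the filter, with 2.91, 4.90 and 4.45 in blood, and in marrow 9.81, 8.04 and 7.27 (adjusted p = 0.174 without the filter).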
